A study of Mus musculus with 15 samples.

Results

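Sclerostin and 9 other genes of secreted Wnt inhibitors were followed across mouse aortas of 3 groups. The genes are Sost, Sostdc1, Sfrp1, Sfrp2, Sfrp4, Sfrp5, Frzb, Dkk2, Dkk3 and Wif1, a list of 10 named genes out of the 34714 in the deposited expression table. The members were chosen by name with measured values of these libraries in view, among them the FPKM differences of Sost between the groups, so the members' differences between groups are given as a description. All 10 were found, and 9 were among the 12603 genes that passed the filter used before comparing groups, a minimum of 1 in 5 or more of the 15 libraries. Dkk2 was under it. AngII+RvE1 mice were infused with angiotensin II, a vasoconstrictor peptide that raises blood pressure, at 750 ng per kg per minute, and received intraperitoneal resolvin E1 (RvE1), a lipid mediator involved in the resolution of inflammation, at a daily dose of 2 µg per kg. AngII mice received the infusion alone, and Sham mice formed the control group. All 3 groups are labelled as wild type (WT) aorta, with 5 libraries each. The labels used here give no age, strain, sex or duration of treatment, nor whether each library is its own animal. Errors and p-values therefore describe the spread of these libraries, which may be technical.

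Wnt proteins are secreted signals that bind Frizzled receptors together with the co-receptors LRP5 and LRP6, which stabilises beta-catenin in the receiving cell. Secreted inhibitors act outside the cell in different ways. Sclerostin (Sost), its relative Sostdc1 and the classical proteins of the Dickkopf (Dkk) family bind the co-receptors, whereas the secreted Frizzled-related proteins (Sfrp genes and Frzb) and Wif1 bind the Wnt proteins themselves. Sclerostin is best known as a product of osteocytes that restrains bone formation, and it is also made by smooth muscle cells of the aorta.

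The values are taken to be FPKM, sequenced fragments scaled to the length of the gene and the depth of the library, an assumption because the table names no unit. They summed to between 385846 and 514281 per library. Read depth is unknown, and no counting error is attached to any value. Aortic smooth muscle was present in every library, with the smooth muscle actin gene Acta2 at 2634 to 4500.3 FPKM in AngII+RvE1, 485 to 1550.2 in AngII and 844 to 6288 in Sham. Fat was present too, with the adipocyte hormone gene Adipoq between 324 and 882 FPKM over all libraries. Heart muscle genes varied widely between libraries of every group. Their list of 10 genes summed to 13.1 to 1459 FPKM in AngII+RvE1, 13.0 to 2739 in AngII and 42.4 to 1094 in Sham. AngII libraries 3, 4 and 5 stood apart. Their lymphocyte lists of 15 genes summed to 945, 326 and 1452 FPKM, against 15.6 and 7.73 in AngII libraries 1 and 2, 9.43 to 13.7 in AngII+RvE1 and 4.69 to 80.9 in Sham. The macrophage list of 12 genes summed to 271 to 354 FPKM in AngII+RvE1, 271, 567, 3159, 703 and 1315 in AngII libraries 1 to 5, and 223 to 344 in Sham, so that AngII library 2 was also above all libraries of the other groups. Of its 11 tested genes 6 were lower in AngII+RvE1 than in AngII and 4 were higher in AngII than in Sham (limma adjusted p under 0.05), whereas 0 of 11 tested lymphocyte genes passed in either comparison, with 11 and 6 at an unadjusted p under 0.05. In bulk tissue, fewer cells of a type and less RNA per cell cannot be told apart.

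Sost lies on the minus strand of chromosome 11, from 101962458 to 101967015, with 2 exons (positions from RefSeq, GRCm38.p6, the assembly called mm10). Wif1 lies on the plus strand of chromosome 10, from 121034004 to 121100642, with 10 exons. Gene strands, exon numbers and overlaps between genes were taken from the GENCODE annotation. RefSeq promoter entries, covering 250 bases before to 50 bases after the start of a gene, were found for 6 of the 10 members. Those of Sost (chr11:101966966-101967265, minus strand) and Wif1 (chr10:121033754-121034053, plus strand) are shown 5′ to 3′ because of all members these genes had the widest differences between AngII+RvE1 and AngII relative to their error. Capitals mark matches to the E-box CANNTG, a short motif read by basic helix-loop-helix and some zinc finger factors.
Sost promoter: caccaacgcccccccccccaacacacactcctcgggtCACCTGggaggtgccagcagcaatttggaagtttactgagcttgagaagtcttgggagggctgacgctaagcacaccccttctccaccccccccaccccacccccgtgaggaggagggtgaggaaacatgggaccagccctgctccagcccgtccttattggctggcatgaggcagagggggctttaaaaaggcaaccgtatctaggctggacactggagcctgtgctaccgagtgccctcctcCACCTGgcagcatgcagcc
Wif1 promoter: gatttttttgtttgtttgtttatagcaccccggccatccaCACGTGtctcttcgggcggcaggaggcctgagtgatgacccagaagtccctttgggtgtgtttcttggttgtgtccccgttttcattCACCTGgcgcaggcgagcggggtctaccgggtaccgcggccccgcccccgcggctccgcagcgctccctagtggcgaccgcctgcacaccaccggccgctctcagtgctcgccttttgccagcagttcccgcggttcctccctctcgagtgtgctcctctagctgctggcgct
In the Sost window the E-box CACCTG was found at -213 and at 32, counted from the start of the gene. The Wif1 window held CACGTG at -210 and CACCTG at -123. An E-box is common, being present in 72.3% of 32851 promoter windows of this length. Searched on both strands, neither the TCF/LEF motif CTTTGAT (in 3.73% of windows), which Wnt-activated transcription complexes read, nor the CArG box (1.63%), read by serum response factor in muscle genes, was found in any of the 6 members' windows, and none of these motifs overlapped another there. A match is a description of the letters, and the data hold no measure of binding.

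Sost was the most abundant member in AngII+RvE1 and Sham aortas and stood low in AngII. It measured 166, 70.4, 132, 113 and 119.7 FPKM in AngII+RvE1 libraries 1 to 5, and 28.0, 61.5, 5.35, 25.1 and 11.3 FPKM in AngII libraries 1 to 5. Sham libraries 1 to 5 had 187, 129, 37.8, 71.7 and 194 FPKM. Every AngII+RvE1 library was above every AngII library, and 4 of 5 AngII libraries were below the lowest Sham library. The mean was 120.4 ± 34.6 FPKM in AngII+RvE1 (SD, n = 5), with 26.3 ± 21.8 FPKM in AngII and 124 ± 69.2 FPKM in Sham. On the log2(FPKM + 1) scale, fitted with limma over all libraries, Sost was 2.51 higher in AngII+RvE1 than in AngII (SE 0.55, 95% interval 1.34 to 3.68). The difference of AngII from Sham was -2.37 (SE 0.55, interval -3.54 to -1.19). Both differences use the same 5 AngII libraries, so they are not independent of each other. AngII+RvE1 differed from Sham by 0.14, with an interval of -1.03 to 1.31.

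The low AngII values of Sost came with other differences between those libraries. The lowest, 5.35 and 11.3 FPKM, were in AngII libraries 3 and 5, which had the highest lymphocyte levels. These libraries also had the highest macrophage sums, 3159 and 1315 FPKM. Their sums of contractile smooth muscle genes, 2460 and 2016 FPKM, were the lowest of all libraries. With AngII libraries 3, 4 and 5 left out, Sost was 1.46 higher in AngII+RvE1 than in AngII (SE 0.57) and the AngII difference from Sham was -1.32 (SE 0.57). Neither reached a limma adjusted p under 0.05 over all genes, and 2 AngII libraries remained. Leaving out single libraries gave 2.08 to 2.91 for the first difference and -2.77 to -1.94 for the second.

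Dkk3 encodes an atypical Dickkopf protein whose effect on Wnt signalling depends on the cell. Its levels were 56.0, 47.4, 53.0, 57.8 and 79.3 FPKM in AngII+RvE1, against 15.9, 43.1, 11.1, 20.6 and 7.17 FPKM in AngII. Sham libraries had 62.2, 39.0, 12.6, 29.4 and 59.3 FPKM. The AngII+RvE1 and AngII ranges did not overlap, though AngII library 2 was near the lowest AngII+RvE1 library, and Sham spanned most of both. AngII+RvE1 was 1.76 higher than AngII on the log2 scale (SE 0.44), AngII differed from Sham by -1.06 (SE 0.44), and AngII+RvE1 from Sham by 0.70 (SE 0.44).

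Wif1 encodes Wnt inhibitory factor 1, which binds Wnt proteins. It was far less abundant, at 6.07, 2.68, 4.65, 5.17 and 9.17 FPKM in AngII+RvE1 and 0.701, 2.07, 2.14, 0.739 and 0.297 FPKM in AngII. Sham libraries had 4.84, 4.90, 1.05, 1.91 and 4.91 FPKM. Again AngII+RvE1 and AngII did not overlap, but only narrowly, with 2.68 FPKM as the lowest AngII+RvE1 value and 2.14 FPKM as the highest AngII value. The log2 difference of AngII+RvE1 from AngII was 1.59 (SE 0.35), that of AngII from Sham -1.01 (SE 0.35) and that of AngII+RvE1 from Sham 0.58 (SE 0.35).

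Frzb encodes the Frizzled-related protein also called sFRP3, first studied in cartilage. Its levels were 5.84, 2.54, 3.78, 3.56 and 8.59 FPKM in AngII+RvE1, 0.816, 3.53, 3.53, 1.04 and 0.439 FPKM in AngII, and 2.54, 1.84, 0.843, 1.22 and 3.13 FPKM in Sham. AngII libraries 2 and 3 reached into the AngII+RvE1 range, and 4 of 5 AngII+RvE1 libraries were above all AngII libraries. The log2 difference was 1.11 for AngII+RvE1 from AngII (SE 0.36), -0.13 for AngII from Sham (SE 0.36) and 0.98 for AngII+RvE1 from Sham (SE 0.36, interval 0.22 to 1.74). Frzb had the largest difference of the 9 members between AngII+RvE1 and Sham, without passing the threshold.

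**Figure D1:**
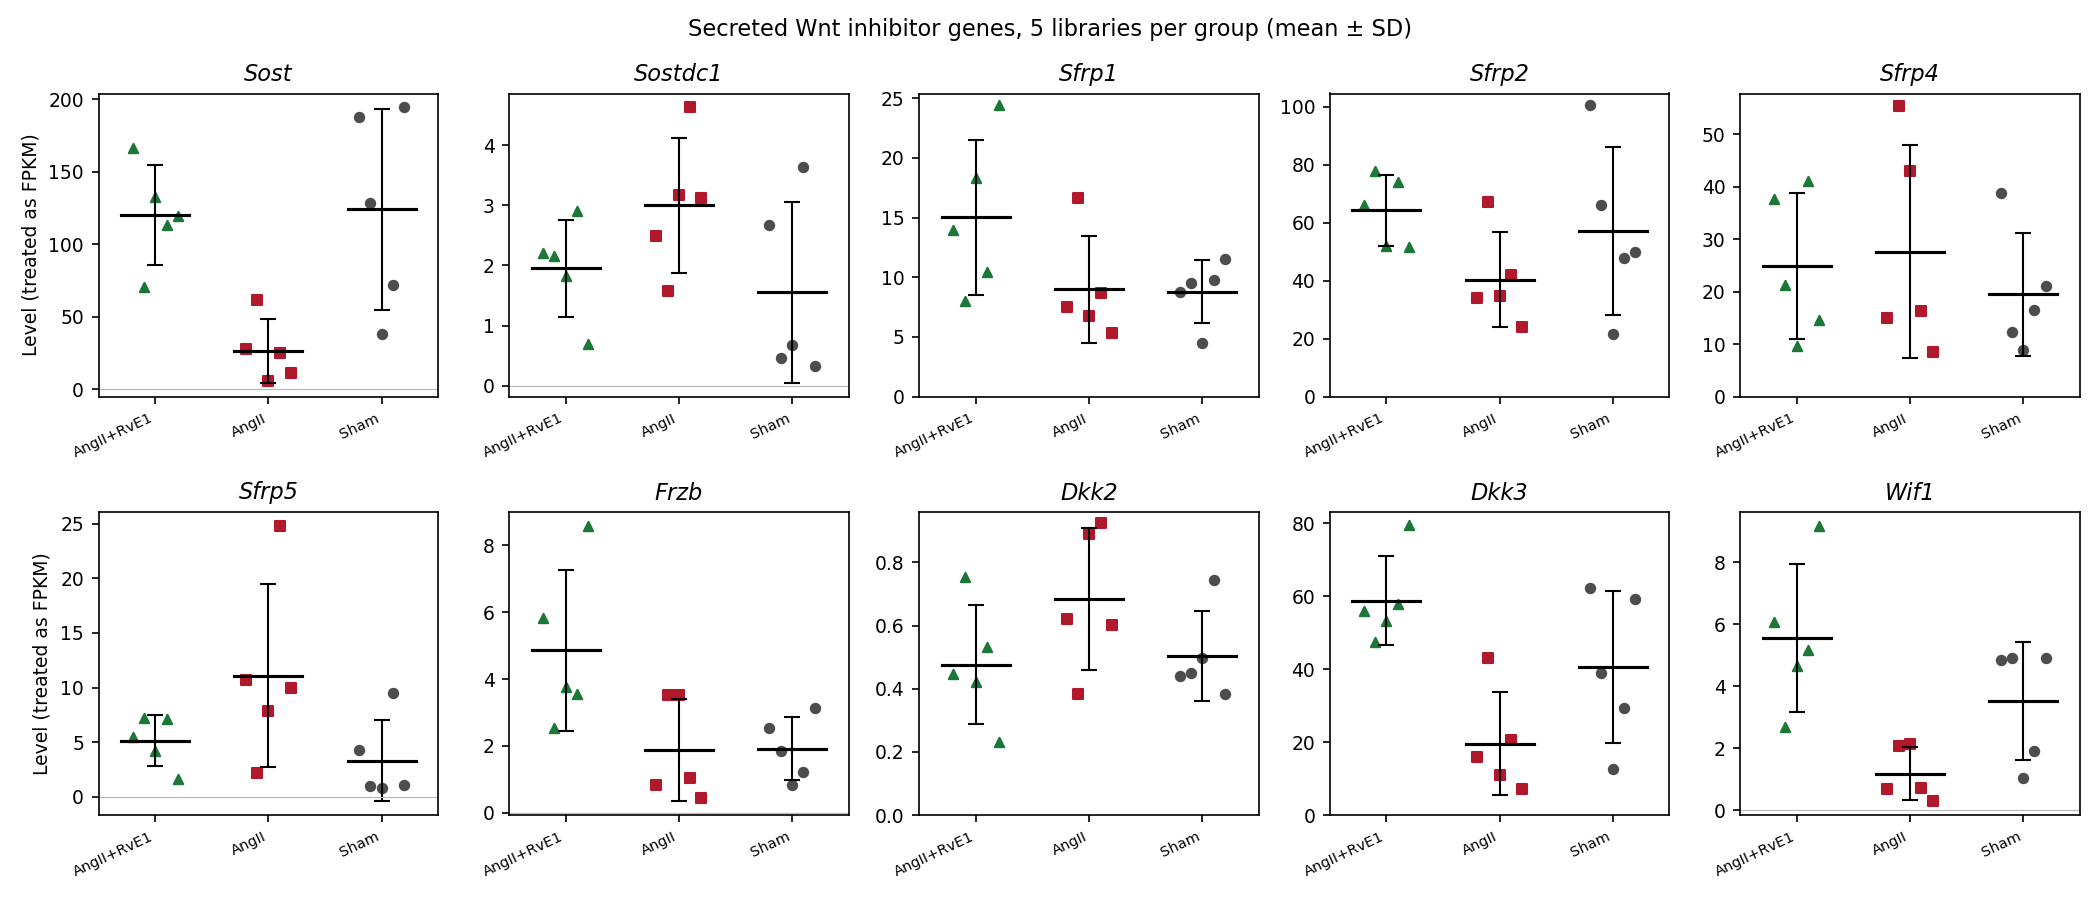
Levels of the 10 members in FPKM on linear axes that include 0, 1 point per library, with the mean (bar) and SD (whiskers) of 5 libraries in AngII+RvE1, AngII and Sham. For Sost, Dkk3 and Wif1 every AngII+RvE1 library lies above every AngII library, while Sfrp5, Sostdc1, Sfrp4 and Dkk2 have their highest values in AngII.

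Of the other Frizzled-related genes, Sfrp1 and Sfrp2 had overlapping groups. Sfrp1 had 7.98 to 24.4 FPKM (median 13.9) in AngII+RvE1, 5.32 to 16.7 (median 7.51) in AngII and 4.46 to 11.5 (median 9.48) in Sham. Sfrp2, expressed by fibroblasts in many tissues, had 51.5 to 77.9 FPKM (median 66.0) in AngII+RvE1, 24.0 to 67.1 (median 34.6) in AngII and 21.4 to 100.6 (median 49.8) in Sham. AngII+RvE1 was 0.68 (SE 0.31) and 0.72 (SE 0.33) higher than AngII on the log2 scale for Sfrp1 and Sfrp2. The antisense gene Gm26771 overlaps Sfrp2, and whether reads were counted by strand is not given in the sources used here, so the Sfrp2 level is uncertain to that extent. Sfrp4 differed little between group means, at 24.8 ± 13.9 FPKM in AngII+RvE1, 27.7 ± 20.4 in AngII and 19.5 ± 11.7 in Sham, but varied up to 6.54-fold between libraries of a group. Its log2 difference of AngII+RvE1 from AngII was -0.03, with an interval of -1.13 to 1.07.

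Sfrp5 and Sostdc1 had higher means in AngII than in both other groups, as did Sfrp4 and Dkk2. Sfrp5, an inhibitor known as an adipokine, had 5.45, 7.26, 4.25, 7.13 and 1.64 FPKM in AngII+RvE1, 10.7, 2.24, 7.86, 24.8 and 9.93 FPKM in AngII, and 4.30, 0.989, 0.828, 9.48 and 1.09 FPKM in Sham. In Sham, libraries 2, 3 and 5 were near 1 FPKM, and the highest value of all was in AngII library 4. Sostdc1, which also binds bone morphogenetic proteins (BMPs), had 2.21, 2.15, 1.82, 2.90 and 0.693 FPKM in AngII+RvE1, 2.49, 1.58, 3.18, 4.63 and 3.12 FPKM in AngII, and 2.68, 0.456, 0.671, 3.63 and 0.336 FPKM in Sham. The same 3 Sham libraries, 2, 3 and 5, were lowest for both genes within Sham. The AngII difference from Sham was 1.56 for Sfrp5 (SE 0.55) and 0.80 for Sostdc1 (SE 0.34), and that of AngII+RvE1 from AngII -0.80 (SE 0.55) and -0.44 (SE 0.34).

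Dkk2, a Dickkopf protein that inhibits or activates Wnt signalling depending on its partners, was under 1 FPKM in all libraries, with means of 0.476, 0.684 and 0.503 FPKM in AngII+RvE1, AngII and Sham. Its relative Dkk1, a classical co-receptor antagonist that is not a member, was under the filter as well, at 0.0798 to 1.01 FPKM in AngII+RvE1, 0.0530 to 1.10 in AngII and up to 0.176 in Sham, where libraries 2 and 3 list it at 0.

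With a limma adjusted p under 0.05 over all genes tested as the threshold, Sost, Dkk3 and Wif1 passed for AngII+RvE1 against AngII, 3 of the 9 members tested, where 8.52% of all genes passed. For AngII against Sham, Sost passed, 1 of 9, where 3.17% of all genes passed. For AngII+RvE1 against Sham 0 of 9 passed, where 0.0238% of all genes passed; 1 member, Frzb, had an unadjusted limma p under 0.05, as did 843 of all genes. The calls depended on the settings and on single libraries. The Sost call for AngII against Sham was lost without the filter, with only the 2 groups fitted and with a replicate block, and the block left Sost alone, 1 of 3 calls, for AngII+RvE1 against AngII. Of all genes, 151, 37 and 109 passed for AngII against Sham under those settings, beside 400 in the main fit. The block left 433 of all genes for AngII+RvE1 against AngII, beside 1074. Sost did not pass for AngII against Sham without Sham library 1, 2 or 5, AngII library 3, 4 or 5, or AngII+RvE1 library 4, and 3 members passed without Sham library 3 or AngII library 2. Of all genes, 76 to 313 passed in the fits where Sost did not. Without Sham library 3 or AngII library 2, 919 and 1719 of all genes passed. For AngII+RvE1 against AngII 0 members passed without AngII library 5 or AngII+RvE1 library 1, 4 or 5, and 5 passed without AngII library 2. Of all genes, 98, 166, 136 and 105 passed in the fits with 0 members, and 2035 without AngII library 2. The members were chosen with these comparisons known, so the counts are not read against the background. The 3 members whose AngII+RvE1 and AngII ranges did not overlap stand beside 11.1% of all tested genes with that property. The median log2 difference of the 9 members was 0.72 for AngII+RvE1 against AngII and -0.13 for AngII against Sham, beside -0.11 and 0.11 over all tested genes.

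**Figure D2:**
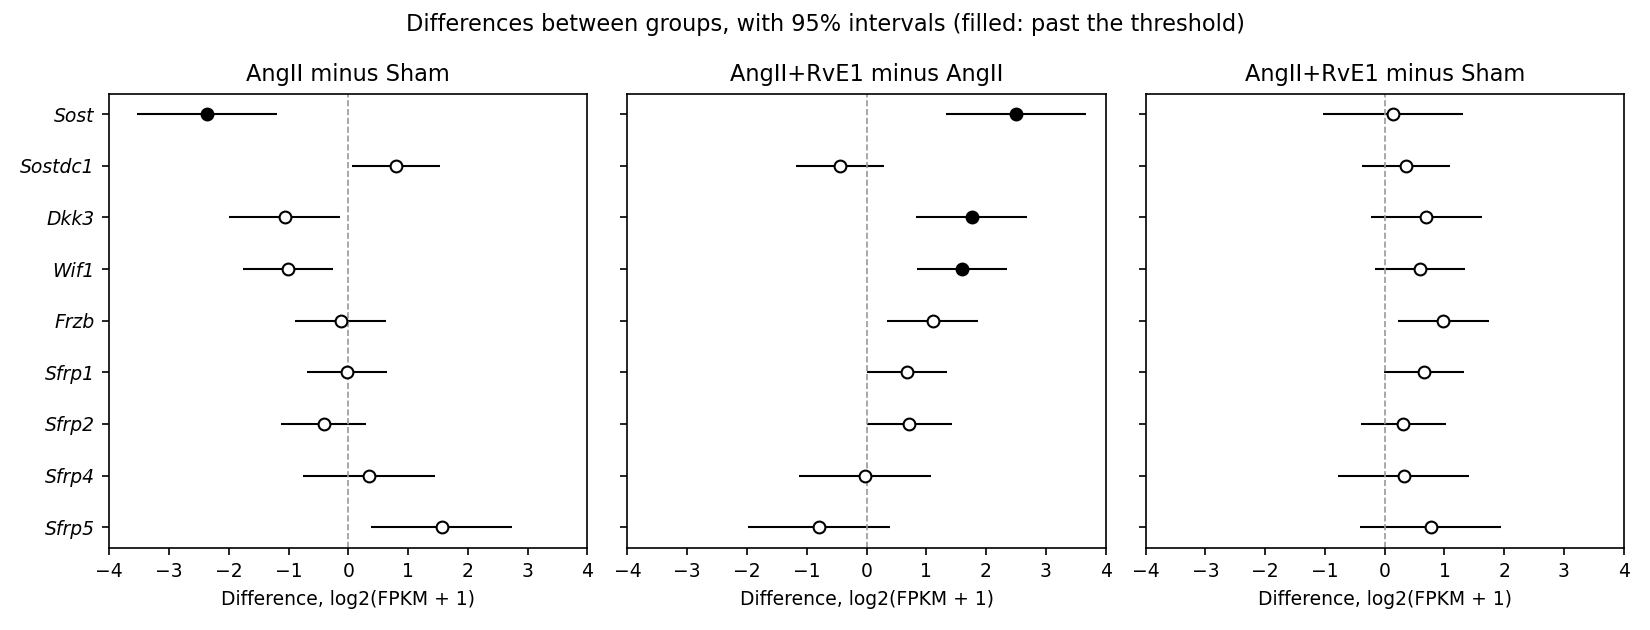
Differences in log2(FPKM + 1) of the 9 members that passed the filter, AngII minus Sham, AngII+RvE1 minus AngII and AngII+RvE1 minus Sham, as points with 95% intervals; filled points passed the adjusted threshold. Sost lies at -2.37, 2.51 and 0.14 in the 3 panels, and Sfrp5 at 1.56, -0.80 and 0.77.

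The order of the members by mean level was led by Sost, Sfrp2, Dkk3, Sfrp4 and Sfrp1 in AngII+RvE1 and in Sham. In AngII the order began with Sfrp2 at 40.3 ± 16.3 FPKM, followed by Sfrp4 at 27.7 ± 20.4, Sost at 26.3 ± 21.8 and Dkk3 at 19.6 ± 14.1 (SD, n = 5 each). Most neighbours in these orders had overlapping ranges. The exceptions were Dkk3 above Sfrp4 in AngII+RvE1 and Sfrp1 above Sostdc1 in AngII, where all libraries of one gene exceeded all libraries of the other. Comparing genes rests on the assumed scaling to gene length.

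Of the 9 members 7 correlated within groups with the level of smooth muscle genes at a permutation p under 0.05 for r, adjusted over the 9 members, Dkk3 and Sost most closely. With adjustment over the 99 relations given below, only Dkk3, Sost and Sfrp1 did (adjusted permutation p for r = 0.00099, 0.01 and 0.0293). For rho the adjusted permutation p was 0.00099, 0.0253 and 0.109, so Sfrp1 did not pass on ranks. The summed level of 20 contractile smooth muscle genes was 8171 to 14667 FPKM in AngII+RvE1, 2016 to 5543 in AngII and 2899 to 18592 in Sham. Of these genes 16 were higher in AngII+RvE1 than in AngII and 3 were lower in AngII than in Sham at the same threshold. Among the defining markers, smooth muscle myosin Myh11 was 370.2 to 626 FPKM in AngII+RvE1, 79.8 to 201 in AngII and 111 to 587 in Sham. Within groups, as deviations of the 15 libraries from their group means, Dkk3 correlated with the list mean at r = 0.94 (rho = 0.96, permutation p = 1e-05 for each, the smallest possible, adjusted over 9 members 9e-05). Sost did so at r = 0.82 (rho = 0.85, permutation p = 0.00081 and 0.00131, adjusted p = 0.00364 and 0.00589). Without the 2 libraries farthest on the list mean, Sham 1 and 3, r was 0.92 for Dkk3 and 0.79 for Sost. Sfrp1 had r = 0.69 (rho = 0.65, permutation p = 0.00296 and 0.0142, adjusted 0.00888 and 0.0427), or 0.72 without those libraries. Wif1 (r = 0.71, rho = 0.61, permutation p = 0.00957 and 0.0316, adjusted 0.0172 and 0.056) and Sfrp2 (r = 0.81, rho = 0.60, permutation p = 0.00683 and 0.0393, adjusted 0.0154 and 0.056) followed, with r of 0.57 and 0.52 without those libraries. Sfrp4 (r = 0.62, rho = 0.58) and Frzb (r = 0.60, rho = 0.60) had permutation p of 0.0156 and 0.0174 for r, adjusted 0.0223 for each, and an adjusted p of 0.056 for each rho, with r of 0.49 and 0.58 without those libraries. For Sfrp5 and Sostdc1 r was 0.02 and 0.07, with adjusted permutation p of 0.948 for each.

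With the smooth muscle list mean as a covariate, the Sost difference of AngII+RvE1 from AngII was 0.49 (SE 0.51) and that of AngII from Sham -0.90 (SE 0.43), neither past the threshold. Dkk3 then differed by -0.06 (SE 0.26) and Wif1 by 0.48 (SE 0.40) between AngII+RvE1 and AngII. In this fit 1 gene of all tested passed for AngII+RvE1 against AngII. The list sums of AngII+RvE1 and AngII do not overlap, so group and smooth muscle level cannot be told apart in that comparison. The log2 level of Sost minus the list mean was -0.59 ± 0.36 in AngII+RvE1, -1.54 ± 0.87 in AngII and -0.30 ± 0.34 in Sham, with SDs over 5 libraries. For Dkk3 it was -1.58 ± 0.18, -1.79 ± 0.42 and -1.85 ± 0.19 in the same order, closer together than for Sost.

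The members fell along different marker lists within groups. Of 99 relations between 9 members and 11 lists, 10 had an adjusted permutation p under 0.05 for r, and these were picked out after the values were seen. Sfrp5 and Sostdc1 followed the Schwann cell list of 10 nerve sheath genes, at r = 0.93 and 0.83 (rho = 0.93 and 0.80, permutation p for r = 4e-05 and 0.00013, adjusted 0.00198 and 0.00346). That list summed to 172 to 224 FPKM in AngII+RvE1, 139 to 573 in AngII and 102 to 238 in Sham, with its highest value in AngII library 4, where Sfrp5 and Sostdc1 also peaked. Sfrp4 and Sfrp2 followed the adventitial fibroblast list at r = 0.90 and 0.87 (rho = 0.92 and 0.80, permutation p for r = 0.00014 and 0.00032, adjusted 0.00346 and 0.00634). Frzb, Sfrp4 and Wif1 followed the list of 16 bone and cartilage genes at r = 0.83, 0.82 and 0.76 (rho = 0.89, 0.78 and 0.79, permutation p for r = 0.00049, 0.00061 and 0.0017, adjusted 0.00808, 0.00863 and 0.0187). Only 6 of those 16 genes passed the filter, and 2 were at 0 in all libraries. Of the 6 tested, the cartilage matrix gene Acan was higher in AngII+RvE1 than in AngII (log2 difference 1.05, limma adjusted p = 0.0357). The mean of this list was highest, at 1.80 on the log2 scale, in AngII library 3, which also had the highest macrophage sum. Without the 2 farthest libraries r stayed between 0.76 and 0.90 in these 7 relations. Sost had r = 0.17 with the bone and cartilage list (adjusted permutation p = 0.82), or 0.70 without the 2 farthest libraries. With the lymphocyte list Sost had r = -0.77 (rho = -0.77, permutation p = 0.0075, adjusted 0.0619). With the cardiac muscle list Sost had r = 0.70 (rho = 0.69, permutation p for r = 0.0122, adjusted 0.0757), or 0.58 without the 2 farthest libraries. Sfrp1 and Dkk3 each had r = 0.64 with that list (adjusted permutation p = 0.0876 and 0.0982). What part these cell types have in the members' levels was not tested.

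**Figure D3:**
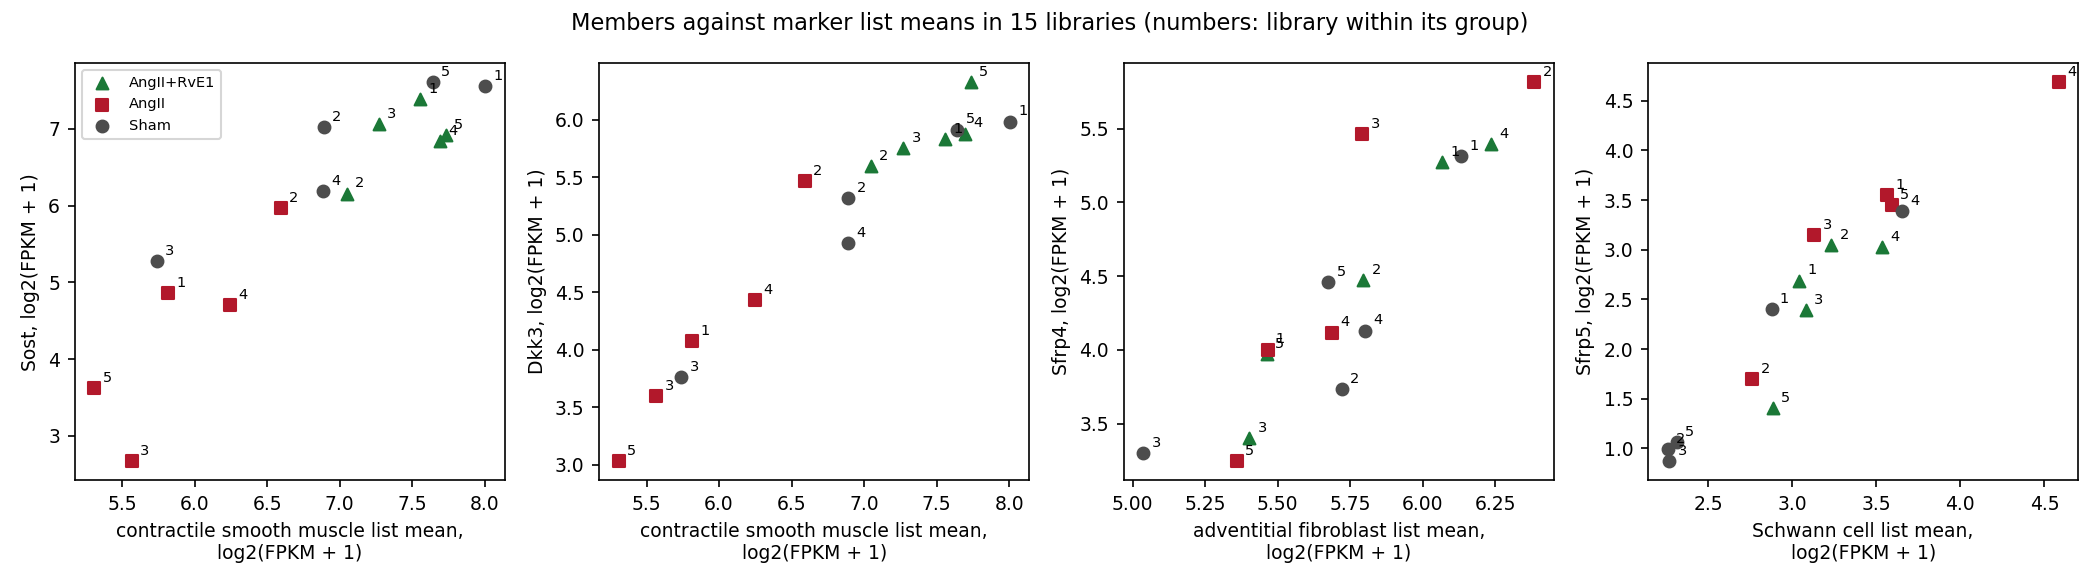
Level of 4 members against the mean of a marker list in 15 libraries, both as log2(FPKM + 1), with triangles for AngII+RvE1, squares for AngII and circles for Sham, numbered by library. Sost and Dkk3 rise with the contractile smooth muscle list, Sfrp4 with the adventitial fibroblast list and Sfrp5 with the Schwann cell list, where AngII library 4 is highest on both axes.

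**Figure D4:**
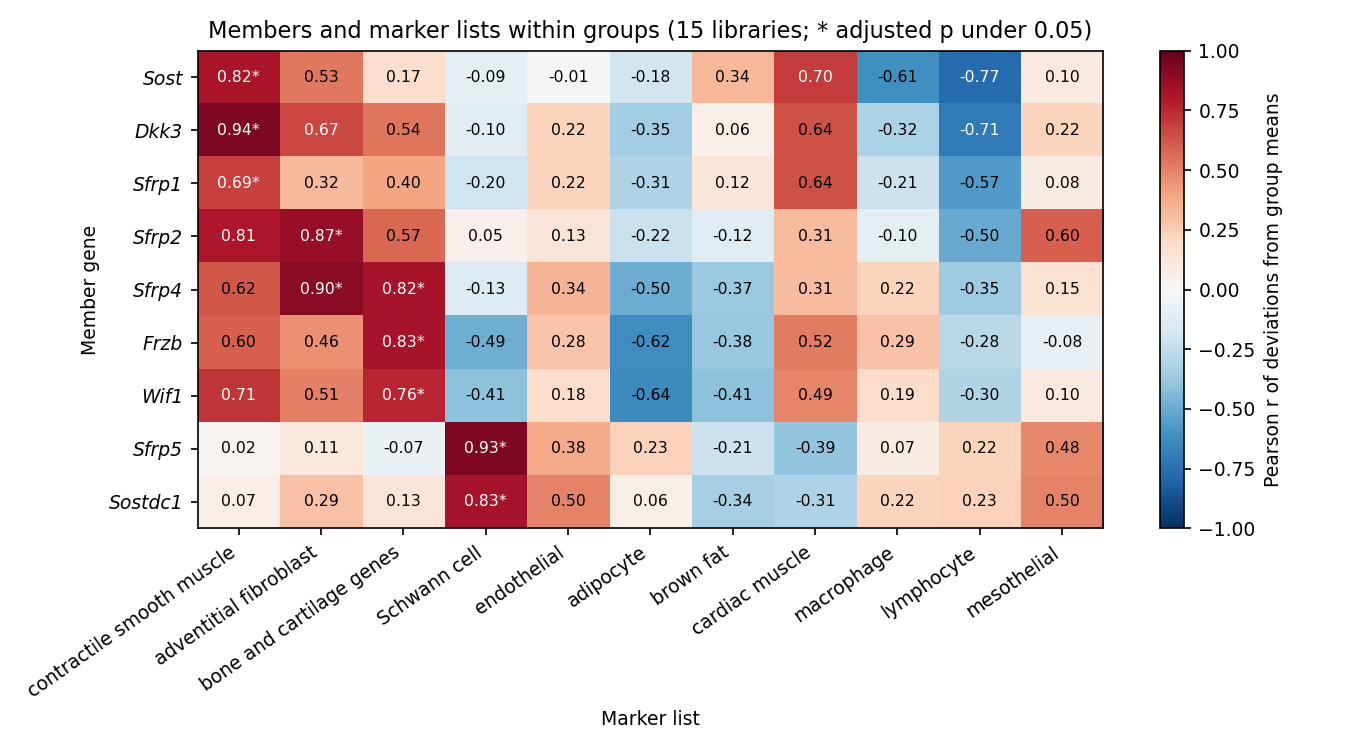
Pearson r between 9 members (rows) and 11 marker lists (columns), computed on deviations from group means of 15 libraries, with the colour scale from -1 to 1 and an asterisk where the permutation p adjusted over 99 relations was under 0.05. Sost, Dkk3 and Sfrp1 carry it for contractile smooth muscle, and Sfrp5 and Sostdc1 for Schwann cell genes.

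Members also varied together in pairs. Of 36 pairs, 11 had an adjusted permutation p under 0.05 for r on deviations from group means. The strongest were Sostdc1 with Sfrp5 (r = 0.92, rho = 0.89, permutation p = 0.0002 and 0.00064, adjusted 0.00312 and 0.0115) and Frzb with Wif1 (r = 0.92, rho = 0.96, permutation p = 2e-05 for each, adjusted 0.00072). Sost with Dkk3 followed (r = 0.87, rho = 0.85, permutation p = 0.00119 and 0.00155, adjusted 0.0107 and 0.0186). Without the 2 farthest libraries r was 0.87, 0.91 and 0.88. Neither Sfrp5 nor Sostdc1 was among the other 10 pairs.

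Genes whose pattern over the 15 libraries was most like that of Sost, among 7886 tested genes with a mean of at least 5 FPKM, were Lynx1 (r = 0.97), Rasl12 (0.96), Cped1 (0.96), Ntf3 (0.95), Bag2 (0.95), Lmcd1 (0.95), Pdgfd (0.95) and Rcan2 (0.95). Symbols that start with Gm and a digit or end in Rik were left out of this ranking. Pdgfd encodes a platelet-derived growth factor and Ntf3 the neurotrophin NT-3. On deviations from group means they were Bag2 (0.93), Sspn (0.93), Oxct1 (0.92), Lynx1 (0.92), Lgr6 (0.92), Marchf8 (0.91), Rasl12 (0.91) and Pamr1 (0.90). Lynx1, Rasl12 and Bag2 were on both lists. Rasl12 had a mean of 103 ± 5.61 FPKM in AngII+RvE1, 45.1 ± 16.5 in AngII and 108 ± 23.5 in Sham, whereas Marchf8 stood at 10.1 ± 0.782 FPKM in AngII+RvE1, 10.7 ± 1.48 in AngII and 10.2 ± 1.35 in Sham. The same ranking for Sfrp4 on deviations was led by Olfml3 (0.97), which was looked up after the other values were seen. The libraries share their groups and tissue makeup, so these values are a description.

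Other Wnt and BMP pathway genes were taken from 7 lists that name 111 genes in the table, of which 73 passed the filter. For AngII+RvE1 against AngII, 11 were higher and 1 was lower, 16.4% of the 73 beside 8.52% of all genes. For AngII against Sham, 1 was higher and 0 were lower, 1.37% of the 73 beside 3.17% of all genes. For AngII+RvE1 against Sham 0 passed, beside 0.0238% of all genes. There 7 of the 73 had an unadjusted limma p under 0.05, as did 843 of all 12603 tested genes. List medians for AngII+RvE1 against AngII ran from -0.30 for other Wnt antagonists to 0.34 for receptors, beside -0.11 over all genes tested.

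Among ligands and receptors, the ligand gene Wnt16 had 4.88 ± 1.64 FPKM in AngII+RvE1, against 1.24 ± 0.835 in AngII (log2 difference 1.42, SE 0.32, limma adjusted p = 0.0217). Its Sham mean was 3.39 ± 1.90 FPKM. The Frizzled receptor genes Fzd2 (1.71, SE 0.37, limma adjusted p = 0.0189) and Fzd7 (1.04, SE 0.25, adjusted p = 0.0244) rose as well, 2 of 11 receptor genes tested. Of 5 R-spondin and receptor genes, Lgr6, a receptor for R-spondins, which enhance Wnt signalling, had 37.1 ± 10.2 FPKM in AngII+RvE1, against 9.83 ± 6.57 in AngII (1.98, SE 0.37, limma adjusted p = 0.0148). In Sham the mean of Lgr6 was 24.3 ± 8.73 FPKM. Its library values were 44.3, 22.6, 34.7, 34.8 and 49.0 FPKM in AngII+RvE1 and 11.6, 20.1, 4.92, 8.87 and 3.63 FPKM in AngII, with no overlap. The same held for 11.1% of all tested genes.

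Of 11 Wnt target genes 2 were higher and 0 lower in AngII+RvE1 than in AngII, with a list median of 0.01. The other 9 did not pass, and 5 of them had negative differences at an unadjusted limma p under 0.05. Those 5, named after their values were seen, were Tcf7 (-2.07, adjusted p = 0.102), Myc (-1.06, adjusted p = 0.104), Apcdd1 (-0.96, adjusted p = 0.0789), Ccnd1 (-0.75, adjusted p = 0.105) and Axin2 (-0.59, adjusted p = 0.142). Tcf7 had 19.8, 6.37 and 30.6 FPKM in the lymphocyte-rich AngII libraries 3, 4 and 5, against 0.536 and 0.265 in libraries 1 and 2. Myc had 13.7, 6.89 and 13.6 FPKM there, against 2.73 and 2.86. Ccnd1 (18.8, 11.5 and 19.4 against 7.25 and 8.28 FPKM) and Apcdd1 were also higher there. Axin2 was not, with 2.76, 2.72 and 3.37 against 3.63 and 2.64 FPKM. What part the makeup of these libraries has was not tested. Ccn5, a growth-inhibiting matricellular protein of smooth muscle, had 190.5, 45.9, 86.2, 187 and 157 FPKM in AngII+RvE1, 13.0, 69.6, 20.8, 16.0 and 6.93 FPKM in AngII, and 70.5, 38.0, 14.5, 24.8 and 54.0 FPKM in Sham (AngII+RvE1 against AngII 2.59, SE 0.56, limma adjusted p = 0.0190). AngII library 2 overlapped the AngII+RvE1 range. Nkd1, a feedback inhibitor of the pathway, was 1.21 higher in AngII+RvE1 than in AngII (limma adjusted p = 0.0435). Pygo1, a nuclear cofactor of beta-catenin and 1 of 18 intracellular signalling genes tested, was 0.43 higher (limma adjusted p = 0.0432). The AngII+RvE1 means of Nkd1 and Pygo1, 13.5 ± 2.09 and 1.42 ± 0.136 FPKM, stood near the Sham means of 13.6 ± 10.1 and 1.47 ± 0.415 FPKM. Among other antagonists Trabd2b, a protease that cleaves Wnt proteins, was 1.22 higher than in AngII (limma adjusted p = 0.0240), 1 of 5. Its mean was 9.03 ± 1.74 FPKM in AngII+RvE1 and 7.61 ± 3.80 FPKM in Sham. The list of BMP ligands and antagonists also holds Id1, Id2, Id3, Smad6 and Smad7. Of its 18 tested genes 3 were higher in AngII+RvE1 than in AngII and 1, Bmper, was lower. Fstl1 and Twsg1, both secreted BMP-binding proteins, rose by 1.53 and 1.08 (adjusted p = 0.0293 and 0.0378). Smad6, an intracellular BMP inhibitor named after its value was seen, had 19.8 ± 6.74 FPKM in AngII+RvE1 and 9.34 ± 3.32 FPKM in AngII (adjusted p = 0.0400).

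Bmper, a secreted modulator of BMP signalling, was the one gene of these 73 to pass in both comparisons that use the AngII libraries. It had 1.13 to 1.76 FPKM (median 1.35) in AngII+RvE1, 2.07 to 4.18 FPKM (median 2.87) in AngII and 0.894 to 1.38 FPKM (median 1.30) in Sham. All 5 AngII libraries were above all libraries of the other groups. Of all tested genes, 3.70% had no overlap between AngII and Sham, and 11.1% had none between AngII+RvE1 and AngII. The log2 difference was -0.62 for AngII+RvE1 against AngII (SE 0.14, limma adjusted p = 0.0223) and 0.76 for AngII against Sham (SE 0.14, adjusted p = 0.0151). For AngII against Sham the genes with the smallest p in the other lists were Wnt6 (0.90, adjusted p = 0.0507), Pygo1 (-0.45, adjusted p = 0.0563), Lgr6 (-1.35, adjusted p = 0.0582), Ryk (-0.36, adjusted p = 0.0667), Trabd2b (-0.90, adjusted p = 0.0819) and Apcdd1 (0.95, adjusted p = 0.0987). For AngII+RvE1 against Sham they were Smad6 (1.08, adjusted p = 0.460), Ccn5 (1.71, adjusted p = 0.611), Fzd2 (0.86, adjusted p = 0.687), Gsk3b (-0.31, adjusted p = 0.689), Rspo3 (0.27, adjusted p = 0.827), Wnt16 (0.49, adjusted p = 0.862) and Trabd2b (0.33, adjusted p = 0.938). None of the 73 genes passed in either comparison that uses AngII when AngII libraries 3, 4 and 5 were left out, or with the smooth muscle covariate.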

How the data were processed

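RNA sequencing of 15 aorta libraries was analysed. Per the labels' protocols, libraries were made from total RNA with a SMARTer mRNA-seq kit. The authors deposited 1 normalised value per gene and library, treated here as FPKM; the submitters' processing notes name mm10, while no aligner, quantifier or annotation is named in the sources used here. Values were transformed as log2(FPKM + 1) after keeping genes with at least 1 FPKM in at least 5 libraries, and a fold change on this scale understates changes of low genes.

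limma-trend (limma 3.58.1, R 4.3.3) estimated a mean for each group from the 15 libraries together, with two-sided tests, with Benjamini-Hochberg adjustment over 12603 genes and a threshold of 0.05. The procedure was tested on simulated data. Correlations used 100000 permutations (Python 3.11.15, numpy 2.4.6, scipy 1.17.1), within groups for deviations from group means. All 34714 symbols matched the RefSeq table. The members and lists were chosen with earlier results of these data known. Named pathway genes are up to 3 past the threshold with the smallest adjusted p per list and comparison, or else the 1 with the smallest p; Sost's neighbours are the 8 with the highest r. Alternatives changed the added value, the filter, the groups fitted, a replicate block, the scaling, a smooth muscle covariate, library weights and the libraries included.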

Additional observations from a re-analysis of the deposited data

How the results depend on the processing

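Members past the threshold numbered 1 for AngII against Sham and 3 for AngII+RvE1 against AngII, and 1 and 12 pathway genes did. In the same order, AngII against Sham first, members numbered 0 and 2 without a filter, 0 and 3 with only the 2 groups fitted, 1 and 4 with rescaling by the median ratio, 0 and 0 with the smooth muscle covariate, 5 and 7 with library weights, and 0 and 0 without AngII libraries 3, 4 and 5. Pathway genes numbered 1 and 3, 0 and 15, 7 and 15, 0 and 0, 13 and 30, and 0 and 0. Of all genes, 400 and 1074 passed in the main fit. Without a filter these numbered 151 and 405, with only the 2 groups fitted 37 and 1340, and with rescaling 584 and 1321. They numbered 104 and 1 with the covariate, 2821 and 4469 with library weights, and 22 and 6 without AngII libraries 3, 4 and 5. With the replicate block 109 and 433 of all genes passed. The replicate block gave 0 and 1 members (Sost) and 1 and 5 pathway genes. On deviations of each gene from its group mean, libraries of the same number correlated at -0.41 to 0.10 between AngII and Sham. On the same deviations they correlated at -0.34 to 0.03 between AngII+RvE1 and AngII. Between AngII+RvE1 and Sham they did so at 0.02 to 0.52, where 3 of 5 were over 0.1. As not all pairs were over 0.1 in any comparison, the numbers were not taken to pair the samples. Where 0 members passed under these settings, 1 to 5 had an unadjusted limma p under 0.05, and where 0 pathway genes passed, 3 to 16 did. Under the covariate Dkk3 turned to -0.061 for AngII+RvE1 against AngII. The cause was not tested for any of these.

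With single libraries left out, members ranged from 0 to 3 for AngII against Sham and 0 to 5 for AngII+RvE1 against AngII, and pathway genes from 1 to 10 and 1 to 19. Calls over all genes ranged from 76 to 1719 and from 98 to 2035 in these fits. An added value of 0.1 left the counts at 1 and 3 members and 1 and 12 pathway genes. For AngII+RvE1 against Sham 0 members and 0 pathway genes passed under all alternatives. The share of higher calls over all genes was 74.5% for AngII against Sham and 49.4% for AngII+RvE1 against AngII, or 42.5% and 64.6% after rescaling. Rescaling moved the median log2 difference of all genes from 0.11 to -0.03 for AngII against Sham and from -0.11 to -0.01 for AngII+RvE1 against AngII. Over all 15 libraries Sost and the smooth muscle mean had r = 0.91, and 0.89 to 0.93 with single libraries left out. Depth is unknown, so the precision of low members such as Dkk2 cannot be given.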
